A study of Mus musculus with 2 samples.

Results

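The steroidogenic cytochrome P450 enzymes were read in total RNA-seq of the newborn mouse adrenal gland. The 6 member genes (Cyp11a1, Cyp11b1, Cyp11b2, Cyp17a1, Cyp21a1 and Cyp19a1) were chosen by name, though with earlier results of these data known. All 6 were found by Ensembl identifier among 43346 Ensembl genes. The series has 1 group of 2 libraries: both came from B6NCrl mice at postnatal day 0, without a treatment or an altered allele in the labels. Each library holds the 2 adrenals of 1 pup. The labels give both pups the same pregnant animal and do not record their sex. Each library began with 10 ng of RNA to which spike-in RNA was added. As both libraries belong to 1 group, the data describe levels in the newborn gland and the distance between pups. There is no contrast between conditions, and because a pup is 1 library, differences between pups come without replication or p-values.

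Steroid hormones are made from cholesterol by a short series of enzymes, several of which are cytochrome P450s, heme proteins that insert oxygen into the steroid. Cyp11a1 cleaves the cholesterol side chain in the mitochondrion, the step that commits cholesterol to steroid synthesis. Cyp21a1 in the endoplasmic reticulum adds the hydroxyl group at carbon C-21, and Cyp11b1 in the mitochondrion completes corticosterone, the main glucocorticoid of mice. Cyp11b2, close kin of Cyp11b1, makes aldosterone in the outer zone of the cortex. Cyp17a1 leads to cortisol and androgens, and Cyp19a1 (aromatase) makes oestrogens, chiefly in the gonads. Mitochondrial members receive their electrons from ferredoxin and its reductase, and members in the endoplasmic reticulum from P450 oxidoreductase.

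Cyp11b1 and Cyp11b2 are neighbours on chromosome 15, and Cyp21a1 has a pseudogene copy, Cyp21a2-ps, on chromosome 17, so the sequences that separate the copies decide which gene a read is counted for. Coding sequences of the reference genome (mm10, GENCODE M21) were compared. Cyp21a2-ps has no annotated coding sequence, so its whole transcript of 1383 bases was used. Stretches with an alignment gap were left out. The most different 100-base stretch of Cyp11b1 and Cyp11b2 inside 1 exon lies in exon 3 of 9 of each gene, on the minus strand, at chr15:74839246-74839345 and chr15:74853815-74853914. It is printed 5′ to 3′, with capitals at the 34 mismatched bases.
Cyp11b1: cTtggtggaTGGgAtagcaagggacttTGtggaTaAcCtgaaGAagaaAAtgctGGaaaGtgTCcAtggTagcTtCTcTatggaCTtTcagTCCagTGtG
Cyp11b2: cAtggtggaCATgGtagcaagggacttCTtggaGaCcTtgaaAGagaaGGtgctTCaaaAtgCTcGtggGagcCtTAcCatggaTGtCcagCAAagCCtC
A stretch in exon 1 is the opposite case, with 0 mismatches. It is the same in Cyp11b1 (chr15:74841488-74841587) and Cyp11b2 (chr15:74856107-74856206), so a read from it names neither gene. It has no capitals.
Both genes: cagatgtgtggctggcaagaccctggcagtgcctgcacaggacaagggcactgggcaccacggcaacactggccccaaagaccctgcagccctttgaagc

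Cyp21a1 and its pseudogene are far closer. Their most different 100-base stretch inside 1 exon has 7 mismatches, again in capitals. It lies in the last exon of each, on the minus strand, at chr17:34801796-34801895 for Cyp21a1 and chr17:34719838-34719937 for Cyp21a2-ps.
Cyp21a1: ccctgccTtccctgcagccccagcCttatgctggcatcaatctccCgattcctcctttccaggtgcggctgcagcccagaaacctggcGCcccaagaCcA
Cyp21a2-ps: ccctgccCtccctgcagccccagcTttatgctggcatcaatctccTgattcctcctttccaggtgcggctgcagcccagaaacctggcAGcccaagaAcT
Over the aligned bases, Cyp11b1 and Cyp11b2 were identical at 1319 of 1501 (87.9%), and Cyp21a1 and Cyp21a2-ps at 1340 of 1374 (97.5%). These values leave out alignment columns with a gap, 13 in the first pair and 99 in the second. A 100-base window held a median of 12 mismatches in the first pair and 2 in the second. The longest run without a mismatch was 244 bases for the Cyp11b pair, from coding base 26 of Cyp11b1, and 140 bases for the Cyp21a1 pair.

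**Figure D1:**
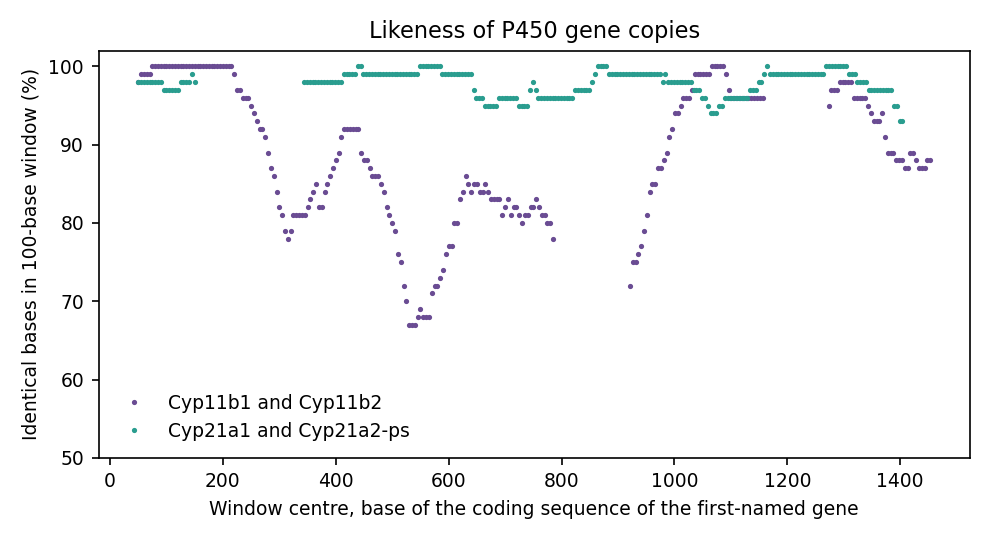
Share of identical bases in 100-base windows (vertical axis, %) against the window centre along the coding sequence of Cyp11b1 (purple) or Cyp21a1 (green); windows with an alignment gap are left out. The Cyp11b pair is identical near the start and differs most in the middle, while the windows of the Cyp21a1 pair hold 0 to 7 mismatches throughout.

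The main transcript of each gene was also searched whole for shared 100-base words, the fragment length implied by the effective lengths in the deposited tables. Of the 1526 words of Cyp11b2, 171 (11.2%) were also in Cyp11b1, and of the 3066 words of Cyp11b1 those 171 made up 5.58%. Another 186 words of Cyp11b1 (6.07%) were shared with Gml2 on the opposite strand, for 357 (11.6%) in all. Cyp21a1 shared 115 of 1959 words (5.87%) with Cyp21a2-ps, for which they were 8.96% of its own 1284. It shared 6 words (0.306%) with Tnxa on the opposite strand. The main transcripts of Cyp11a1, Cyp17a1 and Cyp19a1 shared 0 words with another annotated gene. Most words of these main transcripts were thus found in 1 gene of the pair alone. With 50-base words the shares within the pairs were 19.1% for Cyp11b2 and 23.7% for Cyp21a1.

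Levels are given in TPM (transcript abundance scaled to a fixed total), which corrects for transcript length and so allows genes to be ranked. The interval beside a TPM value is the quantifier's own. It surrounds a posterior mean rather than the TPM itself, so a TPM can lie just outside it. Libraries held 41504343 estimated counts on Ensembl genes in pup 1 and 40799478 in pup 2.

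Cyp11a1, the entry enzyme (ENSMUSG00000032323.9, chr9:58006411-58027023, plus strand, mm10), stood at 901 TPM in pup 1 (interval 882 to 896) and 2838 TPM in pup 2 (2775 to 2806), from 73164 and 187708 counts. It ranked 96 of 21461 nuclear protein-coding genes in pup 1 and 12 in pup 2. Its estimated counts carried a posterior SD of 1.23 and 1.41 counts. Of the 2021 words of 100 bases in its main transcript, 0 were shared with another annotated gene.

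Cyp21a1, the C-21 hydroxylase (ENSMUSG00000024365.9, chr17:34801348-34804561, minus strand), was the highest member in both pups. It stood at 1531 TPM in pup 1 (1500 to 1519) and 4988 TPM in pup 2 (4882 to 4921), from 119474 and 313075 counts. It ranked 39 and 4 among the protein-coding genes. Its pseudogene Cyp21a2-ps (ENSMUSG00000092471.1, chr17:34719813-34722252, minus strand) was listed at 41.9 and 179 TPM, from 2168 and 7551 counts. The pseudogene held 1.78% of the counts of the pair in pup 1 (exact binomial 95% interval 1.71 to 1.86) and 2.36% in pup 2 (2.30 to 2.41). Both rows had the same posterior SD, 12.9 counts in pup 1 and 24.0 in pup 2, as rows that divide a common set of reads would have. This is 0.595% of the pseudogene's count in pup 1 and 0.318% in pup 2. Whether these counts come from transcripts of the copy was not tested.

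Cyp11b1, which completes corticosterone (ENSMUSG00000075604.5, chr15:74834125-74841643, minus strand), stood at 899 TPM in pup 1 (881 to 892) and 2668 TPM in pup 2 (2612 to 2632), from 111258 and 268127 counts. It ranked 97 and 15. Its level was close to that of Cyp11a1 in each pup, with a TPM ratio of Cyp11b1 over Cyp11a1 of 0.998 in pup 1 and 0.940 in pup 2. The ratio of their estimated counts was 1.52 and 1.43. The closeness in TPM thus depends on the annotated lengths of the main transcripts, 3165 bases for Cyp11b1 and 2120 for Cyp11a1. In TPM, Cyp21a1 over Cyp11a1 was 1.70 and 1.76, on average 1.73 ± 0.0413 (SD, n = 2). Within a gland these ratios moved far less than the TPM levels, whose sum over the members lay 3.15-fold apart between pups.

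Cyp11b2, the aldosterone synthase gene (ENSMUSG00000022589.7, chr15:74851010-74856318, minus strand), was detected in both glands at a far lower level. It stood at 12.5 TPM in pup 1 (11.4 to 13.3) and 24.6 TPM in pup 2 (22.8 to 25.7), from 771 and 1232 counts. It ranked 6106 and 4774. The posterior SD, shared with Cyp11b1, was 10.8 counts in pup 1 (1.40% of the count of Cyp11b2) and 14.3 in pup 2 (1.16%).

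The TPM of Cyp11b1 was 71.8 times that of Cyp11b2 in pup 1 and 108 times in pup 2. Over both it was 90.1 ± 25.8 (SD, n = 2). The ratio of their estimated counts was 144 and 218. The gap between count and TPM ratios comes from transcript length: the GENCODE transcript of Cyp11b1 has 1628 bases after its coding sequence, and that of Cyp11b2 has 29. RefSeq places these ends elsewhere. Cyp11b1 ends at chr15:74834125 in GENCODE and, shorter, at 74834892 in RefSeq. Cyp11b2 ends at chr15:74851010 in GENCODE and, longer, at 74850618 in RefSeq. The TPM ratio thus depends on the annotation, and it was not computed with RefSeq lengths. Cyp11b2 took 0.688% of the counts of the pair in pup 1 (exact binomial 95% interval 0.641 to 0.738) and 0.457% in pup 2 (0.432 to 0.484). These intervals do not overlap. Like the other intervals of counts, they hold counting error alone: the reads carry no molecular identifiers, and copies of 1 molecule cannot be counted once. Moving the count of Cyp11b2 by 1 posterior SD left its share between 0.679% and 0.698% in pup 1 and between 0.452% and 0.463% in pup 2.

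Cyp17a1, the 17-hydroxylase (ENSMUSG00000003555.7, chr19:46667165-46673172, minus strand), was close to absent. It had 19 counts in pup 1 and 22 in pup 2, or 0.27 TPM (0.227 to 0.751) and 0.45 TPM (0.357 to 1.07). It ranked 15002 and 14555. Cyp21a1 exceeded it 5669-fold in TPM in pup 1 and 11085-fold in pup 2, ratios that rest on those few counts. The counts were too few to rank its transcripts. All 19 of pup 1 and 20.65 of pup 2 were assigned to the coding transcript, and 1.35 of pup 2 to one with a retained intron. The TPM intervals of these transcripts overlapped in both pups.

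Cyp19a1 (ENSMUSG00000032274.8, chr9:54165937-54268110, minus strand) had 0 counts in both glands. A count of 0 allows up to 3 counts, or 0.0327 TPM in pup 1 and 0.0403 TPM in pup 2. Genes that mark germ cells and the somatic cells of the gonad were also near 0. None of 8 listed gonad genes was at TPM 1 in each pup (0 of 8), and 7 stayed under TPM 1 in each, with summed TPM of 1.77 and 2.54. Foxl2 and Hsd17b3 were at 0 in pup 1, and the highest value was 1.51 TPM for Insl3 in pup 2.

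**Figure D2:**
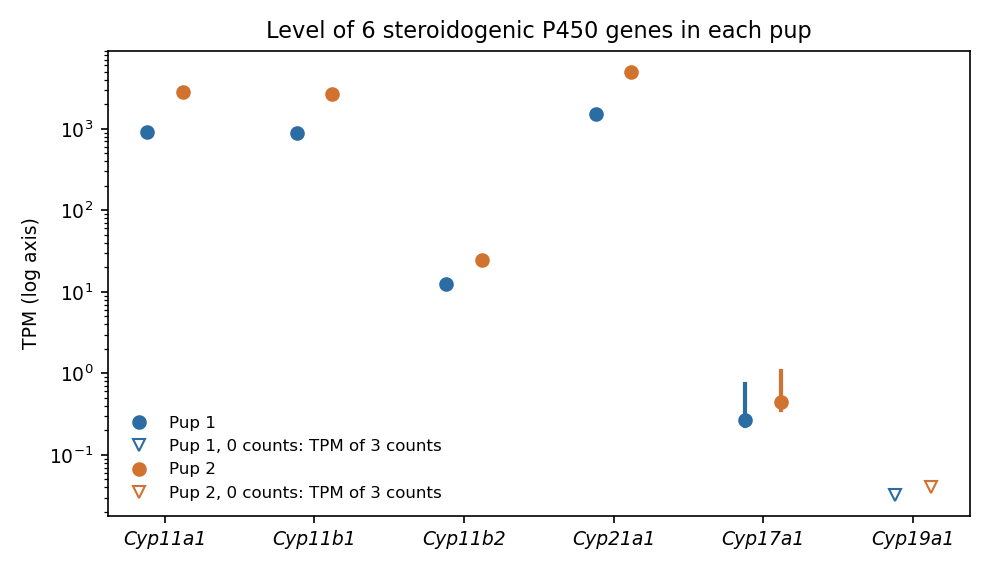
TPM on a log axis for each member gene, with a point for pup 1 (blue) and pup 2 (orange), bars for the quantifier's interval (mostly smaller than the point) and open triangles at the level of 3 counts for Cyp19a1, which had 0. Cyp21a1, Cyp11a1 and Cyp11b1 stand between 899 and 4988 TPM, Cyp11b2 at 12.5 and 24.6 TPM, and Cyp17a1 under 1 TPM in both pups.

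The order of levels was thus Cyp21a1, then Cyp11a1 and Cyp11b1, then Cyp11b2, Cyp17a1 and Cyp19a1 in both glands. As mean ± SD (n = 2) the levels were 3259 ± 2445 TPM for Cyp21a1, 1870 ± 1370 TPM for Cyp11a1 and 1784 ± 1251 TPM for Cyp11b1. Cyp11b2 stood at 18.6 ± 8.56 TPM and Cyp17a1 at 0.36 ± 0.127 TPM. Cyp21a1 was above Cyp11a1 and Cyp11b1 in both glands, with intervals that did not overlap. The intervals of Cyp11a1 and Cyp11b1 overlapped in pup 1. In pup 2 they did not (2775 to 2806 and 2612 to 2632 TPM), with Cyp11a1 the higher on the annotated lengths. The intervals take those lengths as given, and RefSeq gives Cyp11b1 a shorter end. The order of Cyp11a1 and Cyp11b1 was not computed with RefSeq lengths. Before correction for length, Cyp11b1 had more estimated counts than Cyp11a1 in both pups. Cyp21a1, Cyp11a1 and Cyp11b1 each stand apart from Cyp11b2, and Cyp11b2 from Cyp17a1, by far more than the distance between pups. Together the members held 3344 TPM in pup 1 and 10520 in pup 2, which is 0.517% and 1.42% of the TPM of nuclear protein-coding genes. Cyp21a1 took 45.8% and 47.4% of that sum, Cyp11a1 26.9% and 27.0%, Cyp11b1 26.9% and 25.4%, and Cyp11b2 0.374% and 0.234%.

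Among all 100 P450 genes of the annotation, the 6 members held 91.7% of the TPM in pup 1 and 96.8% in pup 2. The other 94 summed to 302 and 348 TPM, and 36 of them reached TPM 1 in both pups. The highest by mean was Cyp4b1 at 16.9 and 28.8 TPM, followed by Cyp51, the lanosterol demethylase of cholesterol synthesis, at 19.1 and 19.8 TPM. The nearest relatives in location, other mitochondrial P450s of bile acid and vitamin D metabolism, were low. Cyp27a1 stood at 9.50 and 6.57 TPM, Cyp27b1 at 0.17 and 0.23 TPM, and Cyp24a1 at 0 and 0.07 TPM.

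Cyp21a1, Cyp11a1, Cyp11b1 and Cyp11b2 were higher in pup 2. Ratios between pups are given as log2 of pup 2 over pup 1, from estimated counts scaled by TMM (a trimmed mean that sets the bulk of genes to equal levels), over 18670 genes whose mean count was 10 or more. The 5 tested members all had positive ratios, against a background of 50.2% of all genes. Over 2-fold higher in pup 2 were 3 of the 5, against 6.03% of all genes and 2.16% of the 1249 nuclear protein-coding genes with a mean TPM of at least 100. Over 2-fold higher in pup 1 were 0 members and 9.76% of all genes, and 15.8% of all genes were over 2-fold apart either way. The median over the members was 1.18, and over all genes 0.00. Cyp19a1, with 0 counts, has no ratio.

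Cyp21a1 had the largest log2 ratio, 1.31 (95% counting interval 1.30 to 1.31), or 2.47-fold. Cyp11a1 followed at 1.27 (1.26 to 1.29) or 2.42-fold, and Cyp11b1 at 1.18 (1.17 to 1.19) or 2.27-fold. Ratios at least as large belonged to 3.54%, 3.70% and 4.25% of all genes tested. Cyp11b2 had a log2 ratio of 0.59 (0.46 to 0.72), or 1.51-fold, and 13.7% of genes had as much. The interval of Cyp11b2 did not overlap those of the 3 high members. Cyp17a1 had 0.12 with an interval from -0.83 to 1.09, so a difference was not detectable at this depth. The pseudogene Cyp21a2-ps had 1.72 (1.65 to 1.79), above the ratio of Cyp21a1.

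**Figure D3:**
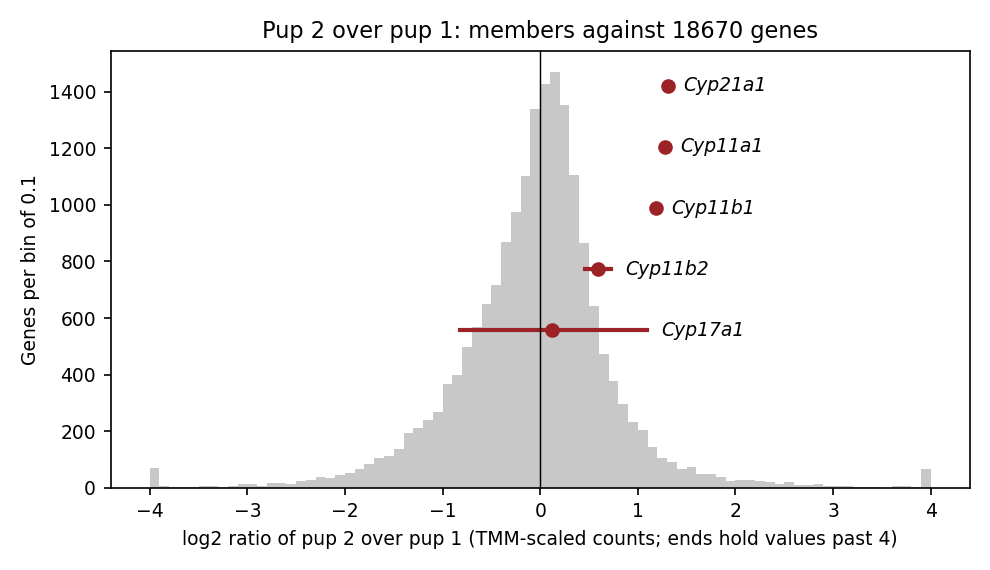
Histogram of the log2 ratio of pup 2 over pup 1 for 18670 genes (grey, genes per bin of 0.1) with the 5 tested members as red points and bars for the 95% counting interval; the height of a point has no meaning. Cyp21a1, Cyp11a1 and Cyp11b1 lie beyond 1 on the right of the distribution, Cyp11b2 at 0.59 and Cyp17a1 at 0.12 with an interval across 0.

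The size of these ratios depends on the scaling. From TPM, the ratios of all genes ran higher, with a median of 0.39, and from spike-in counts with a median of 2.57, because spike-ins took 0.0138% of counts in pup 1 and 0.00250% in pup 2. Over 2-fold, 1125 genes were higher in pup 2 and 1823 in pup 1 by TMM, against 2480 and 945 by TPM and 17972 and 83 by spike-ins. The 5 ratios of members stayed positive under each scaling. Shares within the member set and ratios of members within a gland do not depend on scaling between pups.

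In bulk tissue, fewer cells of a type and less RNA per cell cannot be told apart. Marker genes of several cell types also differed between the glands by TMM-scaled counts, by which 50.2% of all genes were higher in pup 2. Pup 2 had more of all 6 cortex marker genes: their median log2 ratio was 1.06, and their TPM summed to 3410 in pup 1 and 7577 in pup 2. These 6 (Nr5a1, Hsd3b1, Star, Scarb1, Mrap and Mc2r) are themselves genes of steroid synthesis and its control and recur among them further on. Glomerulosa genes, of the outer zone where Cyp11b2 is made, were higher in pup 2 for 4 of 5, with a median of 0.80 and summed TPM of 104 and 210. The exception was Agtr1b at 6.29 and 6.79 TPM (log2 ratio -0.27), while Wnt4 stood at 16.2 and 36.7 TPM. X-zone genes, of the transient inner cortex, had a median of -0.07 over 3 (33.4 and 43.0 TPM). Chromaffin genes of the medulla had a median of 0.53, with 5 of 7 higher in pup 2 (1487 and 3515 TPM). All 5 sympathetic neuron genes were lower in pup 2 (median log2 ratio -2.02, 1093 and 347 TPM), as were all 5 liver genes (-0.80, 2480 and 1922 TPM). Genes of muscle (3 of 3, 55.8 and 225 TPM) and fat (2 of 3, 4.62 and 30.9 TPM) were higher in pup 2, as were 4 of 5 endothelial genes (median 0.76) and both tested kidney genes of a list that summed to 1.70 and 7.37 TPM. Lower in pup 2 were 5 of 5 stroma genes (-0.70, 2081 and 1787 TPM), 4 of 4 glia genes (-0.95) and 2 of 3 leukocyte genes (-0.61). These directions depend on the scaling. By TPM, Col3a1 of the stroma list was higher in pup 2 (574 and 591 TPM), and the other stroma genes were lower. Spike-in scaling, which put the median of all genes at 2.57, would turn the negative medians of these lists positive. No defining marker of the cortex, glomerulosa, chromaffin or neuron lists was at 0. The part of these differences in the ratios of members was not tested.

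Nearly all TPM of the 3 high members came from 1 coding transcript each. Cyp11a1-201 took 98.9% of the Cyp11a1 TPM in both pups, and Cyp21a1-201 took 98.3% of the Cyp21a1 TPM in pup 1 and 96.7% in pup 2, on average 97.5% ± 1.09 (SD, n = 2). Cyp11b1 and Cyp11b2 have 1 annotated transcript in the deposited tables. The lesser transcripts held small shares, some listed as larger in pup 2 and some as smaller. Cyp21a1-203, with a retained intron, held 1.17% in pup 1 (17.96 TPM, interval 14.2 to 22.0) and 2.80% in pup 2 (140 TPM, 127 to 148), a 2.39-fold larger share. Cyp11a1-204, also with a retained intron, held 0.22% and 0.43% (1.96 TPM, 1.68 to 2.23, and 12.3 TPM, 11.3 to 12.8), a 1.95-fold larger share. Other lesser transcripts, Cyp11a1-203 (0.77% and 0.59%) and a processed transcript of Cyp21a1 (0.54% and 0.46%), were listed with smaller shares in pup 2. Their TPM intervals were wide. For Cyp11a1-203 they were 3.41 to 12.9 in pup 1 and 6.65 to 33.8 in pup 2. For the processed transcript they were 5.97 to 10.7 and 18.5 to 27.3. Intervals of the shares were not computed, so a difference in either share is not established. A further coding transcript of Cyp11a1 held 0.07% and 0.10%, a 1.43-fold larger share that rests on 10.55 and 40.25 counts.

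Retained introns were more abundant in pup 2 across the transcriptome as well. Transcripts of this kind held 3.29% of TPM in pup 1 and 4.02% in pup 2. Of 3061 genes with such transcripts at TPM 10 or more, 2151 had a larger share in pup 2 and 835 a smaller one, and the median share was 3.43% and 4.93%. Over the 2816 of these above 0 in both pups, the median fold of the share was 1.28. A share rising at least as much as that of Cyp21a1 was found in 14.7% of the genes, and as much as that of Cyp11a1 in 21.8%. The retained-intron shares of Cyp21a1 and Cyp11a1 were below the median share of these genes in both pups.

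**Figure D4:**
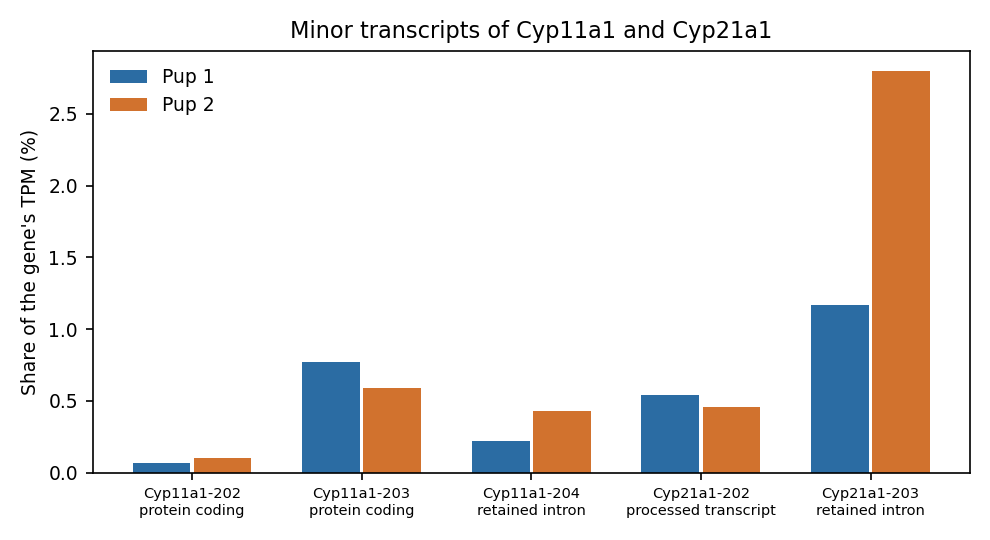
Share of the gene's TPM (%) held by the lesser transcripts of Cyp11a1 and Cyp21a1, with blue bars for pup 1 and orange bars for pup 2. Cyp21a1-203 goes from 1.17% to 2.80% and Cyp11a1-204 from 0.22% to 0.43%, and no other transcript shown reaches 1%.

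The electron donors were all expressed, and 8 of 8 reached TPM 1 in both pups. By scaled counts pup 2 had more of 7 (50.2% of all genes) and over 2-fold more of 1 (6.03% of all genes). The median log2 ratio was 0.39, below the 1.18 of the members. Ferredoxin, Fdx1, which passes electrons to the mitochondrial P450s, had 842 TPM in pup 1 against 1843 TPM in pup 2 (log2 ratio 0.75). Its reductase Fdxr stood at 130 and 491 TPM (1.52), the highest ratio of the list. The mitochondrial members together had 2.15 times the TPM of Fdx1 in pup 1 and 3.002 times in pup 2. Against Fdxr they had 13.9 and 11.3 times, so the order of the pups turned with the donor chosen.

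P450 oxidoreductase, Por, the donor in the endoplasmic reticulum, stood at 60.6 and 112 TPM (log2 ratio 0.45). The members of that compartment, almost wholly Cyp21a1, had 25.3 times the TPM of Por in pup 1 and 44.4 times in pup 2. Cyb5a, cytochrome b5, which aids some P450 reactions, stood at 365 and 382 TPM. Its log2 ratio was -0.34 by scaled counts, and it was the 1 donor that was lower in pup 2 by TMM and higher by TPM and spike-ins.

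Genes of heme synthesis and breakdown, which set the supply of the P450 cofactor, showed a like spread. All 10 reached TPM 1 in both pups. By scaled counts, 9 were higher in pup 2 (50.2% of all genes) and 1 over 2-fold higher (6.03%). The median was 0.44. That one was Alas1, the first enzyme of heme synthesis, at 61.0 and 208 TPM (1.35). Alad, the enzyme after it, stood at 49.8 and 101 TPM (0.64). The heme oxygenase gene Hmox2, which breaks heme down, was at 60.5 and 79.8 TPM. Its log2 ratio of -0.01 by TMM turned positive under TPM, total-count, spike-in and DESeq2 scaling.

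Of 14 other genes of steroid synthesis and its control, pup 2 had more of 11 and over 2-fold more of 5. Of all genes, 50.2% were higher and 6.03% over 2-fold higher in pup 2. The median of the list was 0.64. The 5 were Hsd3b6 (1.85), Nr5a1 (1.46), Scarb1 (1.25), Mrap (1.08) and Star (1.03). Star, which moves cholesterol to the inner mitochondrial membrane where Cyp11a1 sits, had 0.530 of the TPM of Cyp11a1 in pup 1 and 0.448 in pup 2. Hsd3b1, which acts between Cyp11a1 and Cyp21a1, had 1.61 times the TPM of Cyp21a1 in pup 1 and 1.00 times in pup 2. Hsd3b1 was thus well above Cyp21a1 in one gland and level with it in the other.

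The P450s of sterol and bile acid metabolism went the other way by scaled counts, with 6 of 6 lower in pup 2 and a median of -0.52. Of all 18670 genes, 9302 were lower in pup 2. Cyp7b1, an oxysterol hydroxylase, stood at 14.8 and 10.5 TPM (-0.88), and Cyp7a1, the rate-limiting enzyme of bile acid synthesis, at 0.50 and 0.21 TPM (-1.62). By TPM, Cyp51 (19.1 and 19.8) and Cyp39a1 (13.3 and 13.9) were slightly higher in pup 2, and by spike-in scaling the median of the list was positive. By TMM-scaled counts the liver marker genes were also lower in pup 2 (median -0.80), and their part in these values was not tested.

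**Figure D5:**
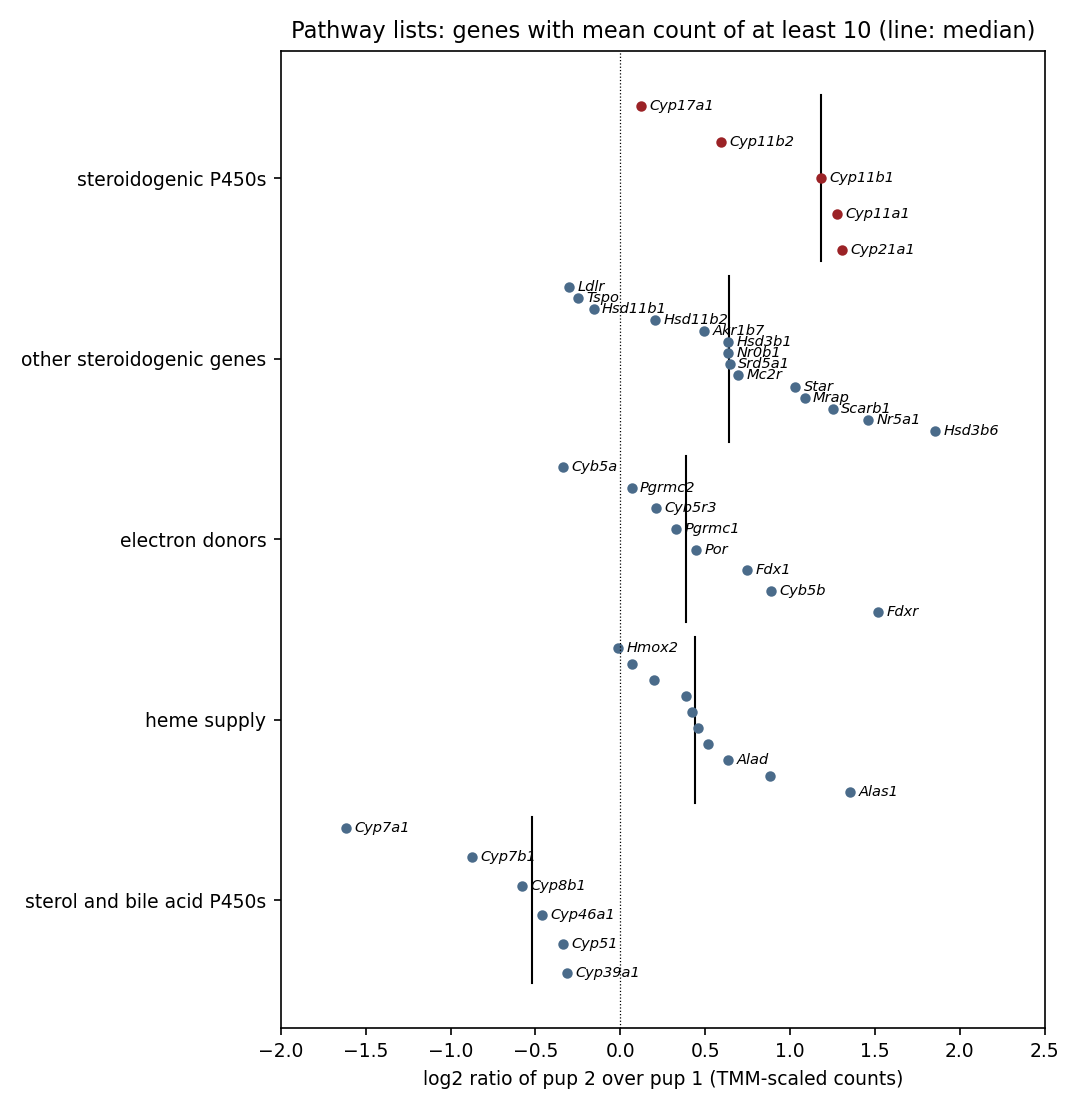
Log2 ratio of pup 2 over pup 1 from TMM-scaled counts (horizontal axis) for the tested genes of each list, 1 point per gene (members in red, other lists in blue), with a black line at each list's median; among the heme genes only those described in the text carry a name. The medians are 1.18 for the members, 0.64 for other steroidogenic genes, 0.39 for electron donors, 0.44 for heme genes and -0.52 for P450s of sterol and bile acid metabolism.

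The genes whose TPM was most like that of each member in both libraries were found by distance on the log2 scale over 12970 genes. Over 2 libraries this is a match of level and of ratio between pups, and no more. Cyp11a1 and Cyp11b1 were each other's nearest gene, at a distance of 0.0893, followed for both by Akr1b7 (1231 and 2266 TPM) and Fdx1. The nearest gene to Cyp21a1 was Adh1, an alcohol dehydrogenase, at 1426 and 4666 TPM (distance 0.141), and Hsd3b1 was the third. Cyp11b2 lay in a crowded range of levels, and Aph1a was among its 3 nearest, at 12.4 and 24.8 TPM (distance 0.0140).

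Annotated genes that overlap the members took few reads. Gm17322, a noncoding gene on the strand of Cyp11a1 that shares 1041 bases with it, was listed at 1.98 and 4.17 TPM. Its posterior SD equalled that of Cyp11a1 in both pups (1.23 and 1.41 counts). Gml2, opposite Cyp11b1 over 747 bases, was at 0.10 and 0 TPM, and the pseudogene Tnxa, opposite Cyp21a1 over 276 bases, at 0.23 and 0.45 TPM. The sources used here do not say how the counting used strand, so reads of opposite genes may not be told apart.

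Promoter windows (RefSeq, 250 bases before to 50 after a gene's start) were held for Cyp11a1 and Cyp19a1 among the members, 5 windows in all. None of them contains the GENCODE start of the main transcript. For Cyp11a1 the RefSeq starts lie 16647 bases before and 281 bases after that start. The bases directly before the start of its main transcript were thus in neither window. For Cyp19a1 the RefSeq starts lie 74722, 35472 and 301 bases before the GENCODE start. The letters CAAGGTCA, which NR5A1 can bind, were in 0 of the 5 on either strand and in 1.56% of 32851 windows. AAAGGTCA, which NR4A factors can bind, was in 0 of the 5 and 1.51% of all windows, and TGACGTCA, which CREB can bind, in 0 of the 5 and 1.79%. TATAAA, the letters of a TATA box, was in 2 of the 5, both of Cyp19a1, and in 13.6% of all windows. A match is a description of the letters, and a missing match says only that they are not in these windows.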

How the data were processed

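The authors deposited a gene and a transcript table for each library. Per the file headers these hold estimated counts (expected counts), TPM, FPKM, isoform percent, and scores of the quantifier: posterior mean and SD of the count and bounds of TPM and FPKM. Build mm10 and GENCODE M4 are named in the deposited text files. For the aligner, quantifier and strand setting: not given in the sources used here. Spike-in rows (97) and numbered rows (26248) were left out. Counts, not whole (beyond 0.001) in 15.3% and 15.9% of gene rows, were rounded. GENCODE M21 of the same build gave names, coordinates and sequence, and the main transcripts of members had equal lengths in both.

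Ratios are log2 of pup 2 over pup 1 after TMM scaling (edgeR 4.0.16, R 4.3.3) with 0.5 added to counts, where the mean count was 10 or more. Intervals are exact binomial at 95%. Pup numbers come from the labels. Members and lists were chosen with earlier results of these data known. Named genes are the members, genes of the fixed lists and the 3 nearest genes of each member. Some genes this rule takes are not reported here. Alternatives were DESeq2 1.42.0 size factors, spike-in, total-count and TPM scaling, posterior mean counts, FPKM, other count minimums and added counts, and leaving out each pup. Added after seeing the data were removal of a trend with GC content and length, 1 posterior SD on Cyp11b2, and the pseudogene row added to Cyp21a1. The ratio step was tested on simulated data. Alignments used biopython 1.88.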

Additional observations from a re-analysis of the deposited data

How the results depend on the processing

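With 2 libraries of 1 group, precision is set by their number, and no test was run. The median log2 ratio of the members (1.18) became 1.20 with DESeq2 size factors, 1.29 with total counts, 1.57 from TPM, 3.75 with spike-in counts and 1.23 with a mean count of at least 100, which leaves 4 members. With spike-in counts 5 members rather than 3 were over 2-fold higher in pup 2. The median of the electron donors (0.39) became 0.50 with total counts, 0.80 from TPM and 2.96 with spike-in counts. From TPM and with spike-in counts, the median of the heme genes (0.44) became 0.83 and 3.01, and that of other steroidogenic genes (0.64) became 1.04 and 3.21. The median of the P450s of sterol and bile acid metabolism was -0.14 from TPM. Spike-in counts turned the medians of the P450s of sterol and bile acid metabolism (2.05) and of the gonad genes (1.91, against -0.66) positive. The gonad list gave no value at a mean count of at least 100. From estimated counts the mean ratio of Cyp11b1 over Cyp11b2 was 181 rather than 90.1. Leaving out either pup gave 3344 to 10520 TPM for the sum of members, 71.8 to 108 for Cyp11b1 over Cyp11b2 and 96.7% to 98.3% for the share of Cyp21a1-201. No paired analysis was possible because both libraries belong to 1 group.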
